A study of Mus musculus with 8 samples.

Results

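Expression of 10 genes of metal handling was followed in immortalized mouse pancreatic stellate cells (PSCs): the metallothioneins Mt1 and Mt2, the ferritin subunits Fth1 and Ftl1, the transporters Tfrc, Slc11a1, Slc39a14 and Slc40a1, and Aco1 and Ireb2, which encode the iron regulatory proteins. All 10 were found by their symbols among the 12160 genes of the count table. They were chosen by function, with fold changes of the same libraries already known, so the values of these genes are a description and the adjusted p-values beside them are not independent support. The cells, 1 immortalized line, were embedded in Matrigel with 20000 seeded according to the sample records (the study's methods give another number), grown for 4 days in growth medium and then kept for 4 days in 1 of 3 media. Medium conditioned by KPC organoids (pancreatic cancer organoids of the mouse) in which Brca2 was silenced by a lentiviral shRNA (shBrca2-CM) was given to 3 samples, and medium conditioned by the same kind of organoids carrying a non-targeting shRNA (shControl-CM) to 3. The control medium was given to 2 samples, which are titled DMEM while their recorded treatment is the PSCs' own conditioned medium. A further column named as a DMEM library matched no sample and was not used. The PSCs themselves carried no shRNA, and the samples of a group were separate Matrigel domes of the same line, so the spread between them is that between domes. How many medium preparations or organoid cultures lay behind each group is not given, so the p-values do not cover differences between those. The study's methods give less serum for the organoid-conditioned media than for growth medium, and the part of serum in the values was not tested.

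The shBrca2-CM libraries held 655996 to 1095534 counts, the shControl-CM libraries 1093609 to 1624392, and the control libraries 4623846 and 5476988. A count of 3, the floor used here, corresponded to 2.66 to 4.34, 1.92 to 2.90, and 0.521 and 0.645 CPM (counts scaled to a fixed library total), respectively, so Slc40a1 and Ireb2 with both conditioned media, and Slc11a1 with shBrca2-CM, lie close to what these libraries could register. All 10 fibroblast and stellate markers were detected in every group, with summed levels of 3116 to 3287 CPM in shBrca2-CM, 3896 to 4512 CPM in shControl-CM and 5448 to 6505 CPM in control medium. The sum joins genes that moved apart against control medium, such as Vim (3396 and 4115 CPM with control medium, 243.1 to 749.1 CPM with conditioned medium) and Dcn (104.8 and 80.0 CPM against 909.7 to 2257 CPM), and the myofibroblast gene Acta2 had at most 3 counts in each conditioned library. With shBrca2-CM against shControl-CM, Dcn was lower (log2 fold change -0.93, adjusted p = 0.00314; means of 1086 and 2107 CPM), Pdgfra was higher (0.85, adjusted p = 0.0519), and the other 8 were not called. Of 8 epithelial markers only Krt18 and Krt19 were in the table (7.69 to 31.1 CPM summed over all libraries). Krt18 was higher with both conditioned media than with control medium (5.37-fold with shControl-CM, adjusted p = 0.00722), and Krt19 was lower in both and 4.33-fold higher with shBrca2-CM than with shControl-CM (adjusted p = 0.0632). The part of these cell type markers in the results was not tested. Of 5 endothelial markers only 2 were in the table (at most 3.48 CPM). In such bulk libraries fewer cells of a type and less RNA per cell cannot be told apart.

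Metallothioneins are small, cysteine-rich proteins that bind zinc, copper and cadmium. Their genes are switched on through metal response elements (MREs), short promoter motifs bound by the zinc-sensing factor MTF-1, and also by glucocorticoids and inflammatory cytokines. Iron enters cells through the transferrin receptor (Tfrc) or as free metal through transporters such as ZIP14 (Slc39a14), is stored in a shell of ferritin heavy (Fth1) and light (Ftl1) chains, and leaves through ferroportin (Slc40a1). Stem-loops called iron-responsive elements (IREs) lie in the mRNAs of Tfrc, Fth1, Ftl1 and Slc40a1. Iron regulatory proteins 1 and 2, encoded by Aco1 and Ireb2, bind them when iron is scarce. Bound at the 5′ end they block translation, and bound in the 3′ untranslated region of Tfrc they protect the mRNA, so part of this control does not show in mRNA counts.

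The 250 bases before the RefSeq start of Mt2 and Mt1 (GRCm38.p6, the patch release of mm10) are shown because these genes were the most abundant of the 10 to differ between the conditioned media, and their promoters hold the elements through which metals act. Capitals mark the letters TGCACNC and TGCGCNC, the MRE core, on either strand (a match on the other strand reads GNGTGCA or GNGCGCA).
Mt2, chr8:94172368-94172617, plus strand: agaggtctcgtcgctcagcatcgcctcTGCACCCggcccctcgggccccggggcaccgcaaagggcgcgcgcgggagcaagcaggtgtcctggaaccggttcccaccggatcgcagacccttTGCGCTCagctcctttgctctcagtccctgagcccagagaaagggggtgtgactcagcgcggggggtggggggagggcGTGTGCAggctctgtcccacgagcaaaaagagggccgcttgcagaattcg
Mt1, chr8:94178839-94179088, plus strand: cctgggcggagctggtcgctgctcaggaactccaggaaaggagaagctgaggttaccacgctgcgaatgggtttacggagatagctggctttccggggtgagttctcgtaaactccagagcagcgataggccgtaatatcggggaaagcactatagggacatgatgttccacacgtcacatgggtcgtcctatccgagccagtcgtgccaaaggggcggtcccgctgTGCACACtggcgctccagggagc

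Mt2 held 3 matches in these 250 bases, the nearest at -50 to -44 from the start, and 1 more in the 50 bases after the start. The Mt1 start of this table, 94179089, lies 206 bases inside the gene span that RefSeq gives, which begins at 94178883, so most of the Mt1 stretch shown is within that span. Relative to 94179089, Mt1 held 1 match before, at -23 to -17, and 2 in the 50 bases after, at 3 to 9 and 21 to 27. Where transcription of Mt1 starts in these cells was not measured, so the places of these matches relative to its true start are not known. Matches outside the 300 bases of a window were not searched. Over all 32851 RefSeq windows of the same 300 bases, 25.7% held at least 1 match, 1.97% at least 3 and 0.517% at least 4. Of the other members with a window, Aco1 held 1 match, 1 of the 2 Tfrc windows held 2 that overlap each other, and Fth1, Ftl1, Slc11a1 and Ireb2 held none. Slc40a1 and Slc39a14 were not searched. A match is only a run of letters and no binding was measured here.

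The IREs are shown because they separate the stored-iron and export mRNAs, which carry 1 near their 5′ end, from Tfrc, which carries several in its 3′ untranslated region. They were searched in 21593 coding GENCODE transcripts as a loop of CAGTGN (capitals, N being any base but G) between stems of 5 paired bases, with an unpaired C below the 5′ stem, and the coordinates are of GRCm39. By the same search 20 genes (0.0926% of the transcripts) had such a stem-loop in the 5′ untranslated region and 93 (0.431%) in the 3′ untranslated region.
Fth1, chr19:9960097-9960123, plus strand, 5′ untranslated region, exon 1: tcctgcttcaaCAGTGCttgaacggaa
Ftl1, chr7:45109204-45109230, minus strand, 5′ untranslated region, exon 1: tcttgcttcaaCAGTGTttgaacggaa
Slc40a1, chr1:45964626-45964652, minus strand, 5′ untranslated region, exon 1: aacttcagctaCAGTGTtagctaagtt
Tfrc, chr16:32450038-32450064, plus strand, 3′ untranslated region, exon 19: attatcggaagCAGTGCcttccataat
Tfrc, chr16:32450417-32450443, plus strand, 3′ untranslated region, exon 19: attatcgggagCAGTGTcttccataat
Tfrc, chr16:32450482-32450508, plus strand, 3′ untranslated region, exon 19: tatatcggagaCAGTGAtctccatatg
Tfrc, chr16:32450529-32450555, plus strand, 3′ untranslated region, exon 19: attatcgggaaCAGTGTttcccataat

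Metallothioneins were higher in PSCs with either conditioned medium than with control medium, and lower with shBrca2-CM than with shControl-CM. Mt1 (chr8:94178883-94180327 in GRCm38.p6) was at 5979, 6599 and 7515 CPM with shBrca2-CM, at 10240, 12840 and 15310 CPM with shControl-CM, and at 4127 and 3995 CPM with control medium. The 3 groups of Mt1 values did not overlap. Mt2, which lies next to it (chr8:94172618-94173567), was at 7399, 6635 and 9110 CPM, at 15390, 17450 and 19610 CPM, and at 1718 and 1550 CPM in the same order. Its groups did not overlap either, and its range between control medium and shControl-CM was wider than that of Mt1.

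Between the conditioned media, Mt1 fell by 0.91 on the log2 scale with shBrca2-CM (SE 0.15, adjusted p = 0.00734, edgeR over all genes tested) and Mt2 by 1.15 (SE 0.14, adjusted p = 0.00104). Means were 6698 ± 773 CPM against 12790 ± 2536 CPM for Mt1 and 7715 ± 1267 CPM against 17480 ± 2109 CPM for Mt2 (SD, n = 3). Against control medium, Mt2 was 10.6-fold higher with shControl-CM (log2 fold change 3.41, SE 0.20, adjusted p = 2.7e-06) and 4.73-fold higher with shBrca2-CM (2.24, SE 0.14, adjusted p = 8.18e-21). Mt1 was 3.13-fold higher (1.65, SE 0.20, adjusted p = 3.1e-04) and 1.65-fold higher (0.72, SE 0.13, adjusted p = 4.42e-06). Both comparisons use the same 2 control libraries. Each came from its own fit with its own variance estimate, here and throughout. A smaller adjusted p in one fit than in the other therefore does not mark a better supported difference.

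Together the 2 metallothionein genes took 0.586% ± 0.0397 of all counts with control medium (SD, n = 2), 1.498% ± 0.185 with shBrca2-CM and 2.85% ± 0.326 with shControl-CM (SD, n = 3). By abundance Mt2 was the 57th and 73rd gene of the 2 control libraries, between the 2nd and 3rd with shControl-CM and between the 4th and 5th with shBrca2-CM. Mt1 was the 7th and 12th with control medium, the 4th or 5th with shControl-CM and the 6th or 7th with shBrca2-CM. The ratio of Mt2 to Mt1 counts within a library was 0.416 and 0.388 with control medium, 1.15 ± 0.128 with shBrca2-CM and 1.38 ± 0.113 with shControl-CM, so the conditioned media and the control medium did not overlap in it. Across the 8 libraries log2 CPM of Mt1 and Mt2 had a Pearson's r of 0.950, a description over libraries that share their media.

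**Figure D1:**
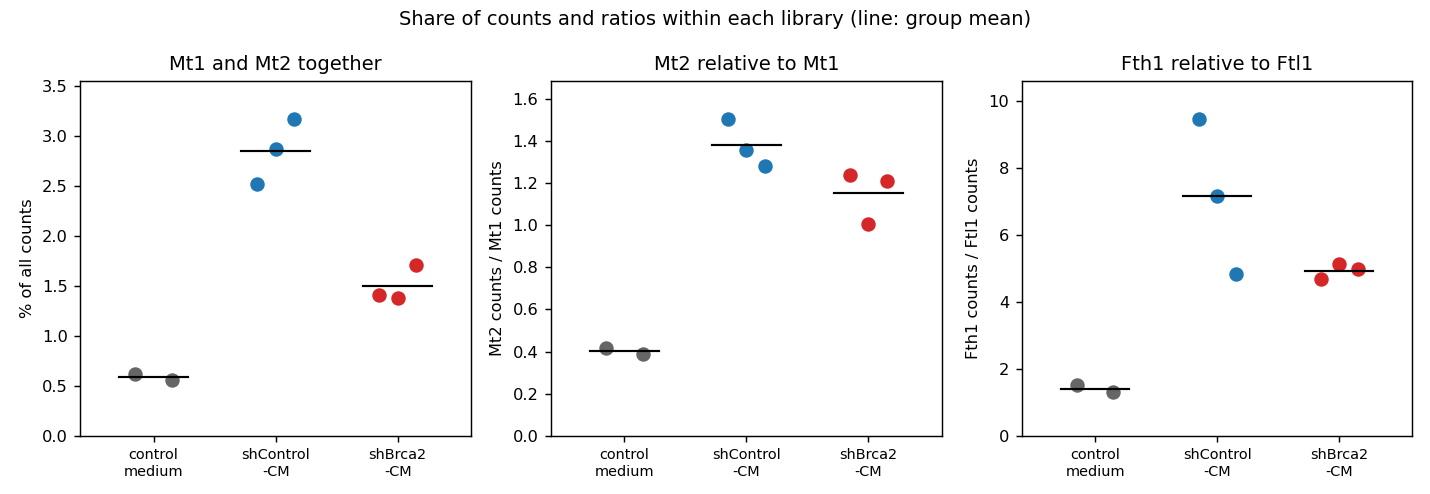
Share of all counts taken by Mt1 and Mt2 together (percent, left) and the ratios of Mt2 to Mt1 counts (middle) and of Fth1 to Ftl1 counts (right), with 1 point per library, lines at the group means and axes starting at 0. The metallothionein share is 0.558% to 0.614% with control medium and 2.51% to 3.17% with shControl-CM, and both ratios are lowest in the 2 control libraries.

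The ferritin subunits moved in opposite directions against control medium. Fth1, the heavy chain with ferroxidase activity (chr19:9980600-9985111), was at 11110, 11260 and 10690 CPM with shBrca2-CM, 14430, 14360 and 11540 CPM with shControl-CM, and 5401 and 6051 CPM with control medium. Ftl1, the light chain that helps the iron core form (chr7:45457944-45459886), was at 2364, 2194 and 2146 CPM, at 1523, 2002 and 2380 CPM, and at 3591 and 4610 CPM. Every conditioned library had more Fth1 and less Ftl1 than both control libraries.

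Fth1 rose 2.34-fold with shControl-CM (log2 fold change 1.23, SE 0.18, adjusted p = 9.51e-04) and 1.93-fold with shBrca2-CM (0.95, SE 0.12, adjusted p = 5.88e-09) against control medium. Ftl1 fell by 1.07 on the log2 scale (SE 0.20, adjusted p = 0.00337) and by 0.87 (SE 0.13, adjusted p = 8.06e-08). Within a library, the ratio of Fth1 to Ftl1 counts was 1.504 and 1.312 with control medium, 4.94 ± 0.220 with shBrca2-CM and 9.47, 7.17 and 4.85 with shControl-CM. The last shControl-CM library lay inside the shBrca2-CM range of 4.70 to 5.13, and the others above it.

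Neither ferritin gene passed the thresholds between the conditioned media. The log2 fold change of Fth1 with shBrca2-CM against shControl-CM was -0.26 (95% interval -0.54 to 0.014, adjusted p = 0.409), although its 3 values per group did not overlap, and that of Ftl1 was 0.21 (95% interval -0.12 to 0.54, adjusted p = 0.612). Both genes share sequence with processed copies elsewhere in the genome. Of 5 ferritin pseudogenes in RefSeq none had a row in the table, and how reads that match several copies were counted is not given in the sources used here, so both levels are uncertain to that extent.

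Among the iron importers, the order of the groups was the same for Slc39a14 as for the metallothioneins, and not for Tfrc. Slc39a14 encodes ZIP14, which carries non-transferrin iron, zinc and manganese into cells (chr14:70303467-70351452). It was at 95.5, 68.4 and 83.4 CPM with shBrca2-CM, 137.1, 129.5 and 122.9 CPM with shControl-CM, and 28.3 and 25.2 CPM with control medium. The 3 groups did not overlap. It rose 4.82-fold with shControl-CM (log2 fold change 2.27, SE 0.18, adjusted p = 2.45e-05) and 3.07-fold with shBrca2-CM (1.62, SE 0.19, adjusted p = 2.58e-10) against control medium. Compared with shControl-CM it fell by 0.63 with shBrca2-CM (SE 0.16, adjusted p = 0.0794). That call was lost without any 1 of the 3 shBrca2-CM libraries and without the 2nd shControl-CM library, with log2 fold changes of -0.74 to -0.52 over all 6 omissions and adjusted p-values up to 0.361.

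Tfrc, which takes up transferrin-bound iron (chr16:32608896-32632794), was low, with 5, 8 and 11 counts in the shBrca2-CM libraries (7.23, 9.96 and 9.76 CPM), 11, 12 and 45 counts in the shControl-CM libraries (7.05, 11.6 and 30.6 CPM) and 106 and 71 counts in the control libraries (18.4 and 15.3 CPM). The 3rd shControl-CM library stood above the other 7 libraries, while the other 2 lay below both controls. With shBrca2-CM against control medium Tfrc fell by 0.88 on the log2 scale (SE 0.33, adjusted p = 0.0276). When all libraries were thinned at random to the total of the shallowest one, the log2 fold change was below 0 in 19 of 20 draws (median -0.79) and passed the thresholds in 4. Without the 1st control library it was -0.73 (adjusted p = 0.127).

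With shControl-CM against control medium the log2 fold change of Tfrc was -0.03 (95% interval -1.07 to 1.001, adjusted p = 0.962), and without the 3rd shControl-CM library it was -0.91 (adjusted p = 0.0539), which passed the thresholds. With shBrca2-CM against shControl-CM it was -0.83 (95% interval -1.97 to 0.31, adjusted p = 0.549), and 0.03 without that library. The level of Tfrc with shControl-CM thus rested on 1 library.

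Slc11a1 encodes NRAMP1, a metal transporter of phagosome membranes best known from macrophages (chr1:74375014-74386057). Its counts were 2, 2 and 2 with shBrca2-CM (2.89, 2.49 and 1.78 CPM), 22, 18 and 32 with shControl-CM (14.1, 17.4 and 21.7 CPM) and 15 and 14 with control medium (2.61 and 3.01 CPM). All 3 shControl-CM libraries lay above the other 5, which were within a narrow range. Pooled over libraries and scaled by normalized depth, the level was 7.73 times higher with shControl-CM than with shBrca2-CM (72 against 6 counts, 95% counting interval 3.38 to 21.8), and edgeR called the gene lower with shBrca2-CM (adjusted p = 0.00512). Against control medium it rose 6.23-fold with shControl-CM (log2 fold change 2.64, SE 0.36, adjusted p = 5.71e-04). With shBrca2-CM the pooled ratio to control medium was 0.821 (95% counting interval 0.279 to 2.01), and the gene was not called (adjusted p = 0.786).

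Macrophage markers were measured beside Slc11a1. Of 8, 4 were in the table (Cd68, Csf1r, Lyz2 and Cd14), and the defining markers Ptprc, Adgre1, Itgam and Fcgr3 were not. Their summed level was 102 to 155.3 CPM with shBrca2-CM, 137.9 to 265.9 CPM with shControl-CM and 43.6 to 63.4 CPM with control medium, most of it from Cd14. Csf1r, the receptor for colony-stimulating factor 1, was at 7.05, 7.73 and 13.6 CPM with shControl-CM, 0, 1.24 and 3.55 CPM with shBrca2-CM and 2.43 and 1.94 CPM with control medium. With shControl-CM against control medium Csf1r, Cd68 and Cd14 were higher (4.25-, 4.01- and 4.12-fold, adjusted p = 0.00674, 0.00187 and 0.00177), as Slc11a1 was, and Lyz2, a macrophage lysozyme, was not called (adjusted p = 0.456). With shBrca2-CM Cd68 and Cd14 were higher than with control medium (3.22- and 2.57-fold, adjusted p = 2.72e-04 and 9.05e-09). None of the 4 was called between the conditioned media, where Csf1r had a log2 fold change of -2.26 (adjusted p = 0.134). The part of other cell types in the Slc11a1 values was not tested.

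Slc40a1, the iron exporter ferroportin (chr1:45908070-45926532), was near the floor in conditioned medium. It had 1, 3 and 3 counts with shBrca2-CM (1.45, 3.73 and 2.66 CPM), 5, 1 and 0 with shControl-CM (3.20, 0.966 and 0 CPM) and 21 and 24 with control medium (3.65 and 5.16 CPM). It passed the thresholds in no comparison. The pooled ratio of shBrca2-CM to control medium was 0.618 (95% counting interval 0.235 to 1.38) and that of shBrca2-CM to shControl-CM 1.81 (0.521 to 6.52). With shControl-CM against control medium the log2 fold change was -1.55 (95% interval -3.21 to 0.10, adjusted p = 0.135). Without the 1st shControl-CM library the gene was called lower (adjusted p = 0.0197), on a single count.

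Both iron regulatory protein genes were lower with conditioned medium than with control medium. Aco1, whose product is a cytosolic aconitase when it holds an iron-sulfur cluster and IRP1 when it does not (chr4:40143265-40199009), was at 49.2, 53.5 and 55.0 CPM with shBrca2-CM, 47.4, 45.4 and 53.0 CPM with shControl-CM, and 88.1 and 106.4 CPM with control medium. The conditioned groups overlapped each other and lay below both controls. Aco1 fell by 1.003 with shControl-CM (SE 0.18, adjusted p = 0.00269) and by 0.87 with shBrca2-CM (SE 0.18, adjusted p = 5.29e-05) on the log2 scale, and differed by 0.14 between them (95% interval -0.25 to 0.53, adjusted p = 0.804).

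Ireb2, which encodes IRP2 (chr9:54862658-54912534), had 0, 2 and 1 counts with shBrca2-CM, 2, 0 and 1 with shControl-CM, and 36 and 24 with control medium (6.26 and 5.16 CPM). Its pooled level was 0.128 of the control level with shControl-CM (95% counting interval 0.0257 to 0.392) and 0.199 with shBrca2-CM (0.0398 to 0.609). Both differences passed the thresholds (adjusted p = 0.00966 and 0.00795), and with either control library left out neither did, since the mean count or the adjusted p no longer passed. Between the conditioned media 6 counts in all were too few to test.

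**Figure D2:**
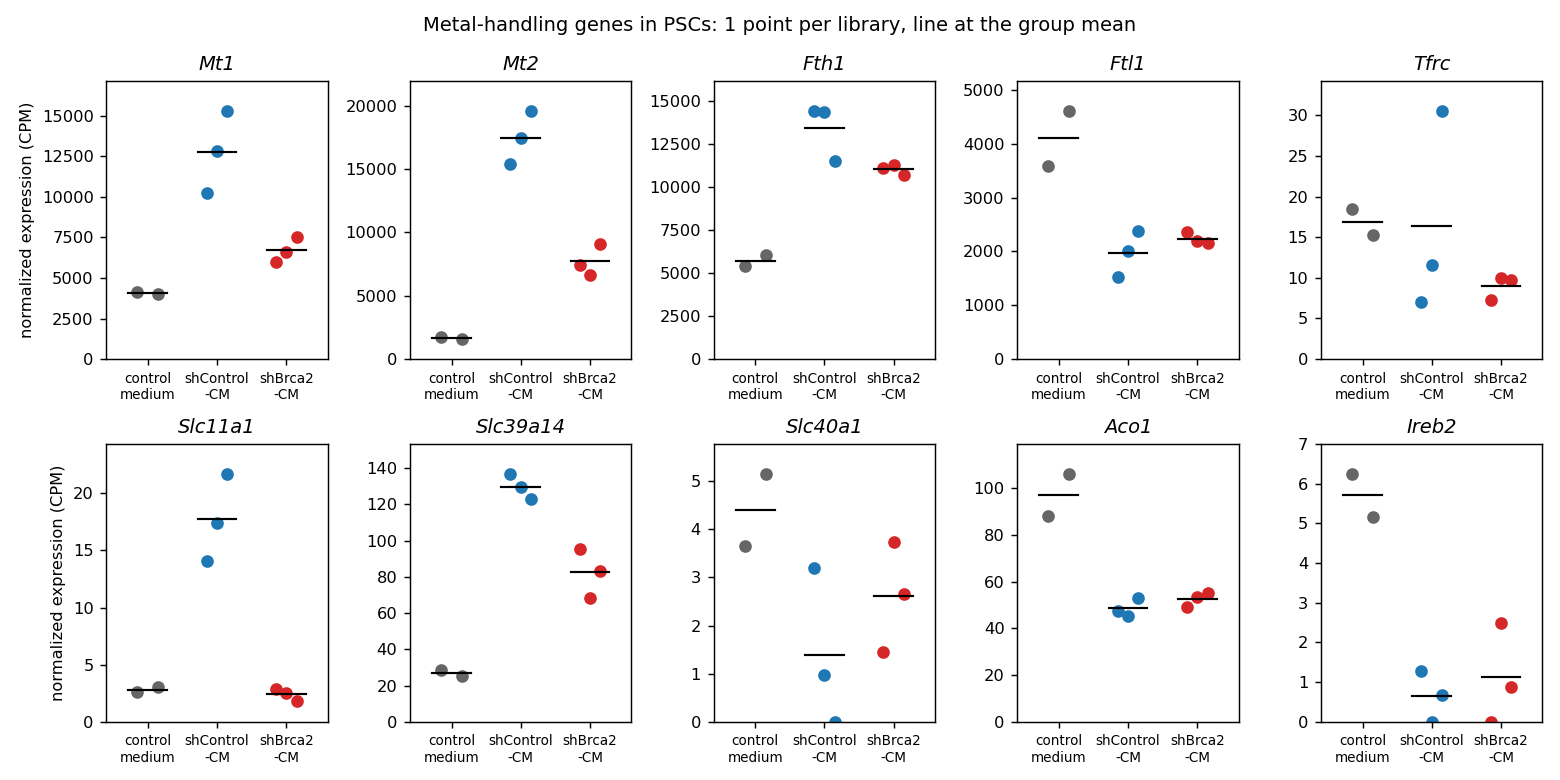
Normalized expression of the 10 genes in CPM (vertical axes from 0, 1 scale per gene) with 1 point per library, for 2 control medium, 3 shControl-CM and 3 shBrca2-CM libraries, and lines at the group means. For Mt1, Mt2 and Slc39a14 the groups do not overlap and shControl-CM is highest, Slc11a1 is high in shControl-CM alone, and Ftl1, Aco1 and Ireb2 are highest in control medium.

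With shBrca2-CM against shControl-CM, 4 of the 9 genes tested (Mt1, Mt2, Slc11a1 and Slc39a14) were DE. A gene counted as DE at an adjusted p-value under 0.1 if its log2 fold change was beyond 0.5 in either direction and its normalized counts averaged more than 5. All 4 were lower with shBrca2-CM, and none was higher. Among all 11035 genes tested, the DE share was 3.13% (1.58% higher, 1.55% lower). Values did not overlap for 5 of the 9, and for 19.8% of all genes tested. Their median log2 fold change was -0.63, beside 0.029 over all genes tested. With shControl-CM against control medium 5 were higher and 3 lower of 10, where the DE share of 12086 genes was 37.1% (18.2% higher and 18.9% lower). With shBrca2-CM against control medium 4 were higher and 4 lower of 10, where that of 12049 genes was 37.8% (18.6% higher and 19.2% lower). Since the genes were chosen with results of these comparisons known, nothing is read from these counts.

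**Figure D3:**
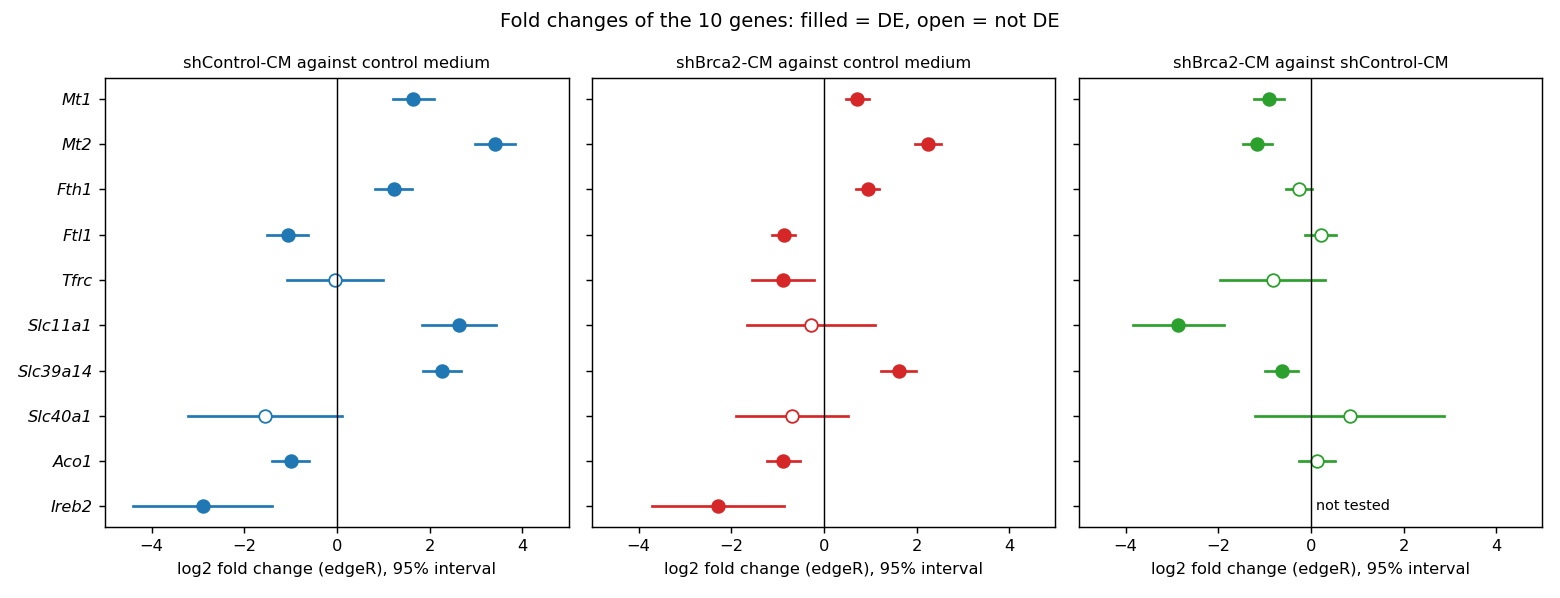
Log2 fold change of each of the 10 genes in the 3 comparisons, with its 95% interval from edgeR; filled circles are DE and open circles are not. Between the conditioned media the 4 filled circles, Mt1, Mt2, Slc11a1 and Slc39a14, are all below 0, and Ireb2 was not tested; estimates for Ireb2, Slc40a1 and Slc11a1 with shBrca2-CM rest on few counts.

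To place these genes among the rest of metal biology, 109 other genes in 6 lists were counted, of which 88 were in the table. These lists were drawn up by function, with earlier results of these data known. With shBrca2-CM against shControl-CM 7 of 81 tested (8.64%, beside 3.13% of all genes) were DE, all lower with shBrca2-CM (1.55% of all genes were): Lcn2, Hp, Slc11a2, Slc48a1, Hmox1, Ciao2b and Slc39a4. The median log2 fold change of the 81 was -0.136, beside 0.029 over all genes. With shControl-CM against control medium 24 were higher and 10 lower of 88 (38.6%), beside 37.1% of all genes (18.2% higher and 18.9% lower). With shBrca2-CM against control medium 19 were higher and 9 lower of 88 (31.8%), beside 37.8% of all genes (18.6% higher and 19.2% lower). Both directions together were near the shares of all genes, but in the lists more genes were higher than lower. The 7 became 3 and 4 without the 2nd or the 3rd shBrca2-CM library and 12 without the 1st shControl-CM library, and the 34 became 15 and 18 without the 1st or the 2nd control library.

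The iron transport list held the widest differences. With each conditioned medium 9 of its 19 genes were higher than with control medium (Slc11a2, Steap1, Steap2, Steap4, Slc48a1, Cp, Lcn2, Slc22a17 and Hp) and 1, the iron chaperone Pcbp1, was lower. Of all genes, 18.2% were higher with shControl-CM and 18.6% with shBrca2-CM. Lcn2 encodes lipocalin 2, a secreted protein that binds iron-loaded siderophores. It was at 7.13 and 6.66 CPM with control medium, 502.0, 579.9 and 743.9 CPM with shBrca2-CM, and 3420, 3673 and 3472 CPM with shControl-CM. Hp, haptoglobin, which binds free haemoglobin, was at 83.6 and 58.5 CPM, at 3456, 2799 and 4140 CPM, and at 17090, 18900 and 18450 CPM in the same order. Neither gene's groups overlapped. Lcn2 fell by 2.50 (SE 0.15, adjusted p = 4.65e-06) and Hp by 2.36 (SE 0.15, adjusted p = 7.28e-06) on the log2 scale with shBrca2-CM against shControl-CM. Lcn2 and Hp are acute-phase genes as well as metal genes.

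The divalent metal transporter Slc11a2, known as DMT1, was at 92.5 and 99.7 CPM with control medium, 169.3, 164.3 and 182.9 CPM with shBrca2-CM, and 267.2, 271.5 and 290.7 CPM with shControl-CM. It fell by 0.66 between the conditioned media (SE 0.13, adjusted p = 0.0174). The heme transporter Slc48a1, outside the rule for named genes and added because it is 1 of the 7, fell by 0.61 (SE 0.12, adjusted p = 0.0227). The metalloreductase Steap4 and the ferroxidase ceruloplasmin (Cp) were DE against control medium with both conditioned media, and not between them. Steap4 was at 103.9 to 140.6 CPM with shBrca2-CM, 131.1 to 133.9 CPM with shControl-CM and 22.4 and 18.7 CPM with control medium, and Cp at 115.4 to 146.1, 79.5 to 114.8, and 30.4 and 17.6 CPM. Their log2 fold changes with shBrca2-CM against shControl-CM were -0.14 (adjusted p = 0.773) and 0.33 (adjusted p = 0.473).

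Of the metallothionein paralogs, Mt3 was at 2.95 and 3.44 CPM with control medium, 8.0 to 13.0 CPM with shBrca2-CM and 13.5 to 22.4 CPM with shControl-CM. It rose against control medium with both (log2 fold change 2.56, SE 0.36, adjusted p = 6.37e-04, and 1.69, SE 0.44, adjusted p = 0.00128), and between the conditioned media its log2 fold change was -0.83 (adjusted p = 0.321). Mt4 was at 0.521 and 1.08 CPM with control medium (3 and 5 counts), 2.89, 0 and 1.78 CPM with shBrca2-CM (2, 0 and 2 counts) and 5.77, 5.80 and 8.15 CPM with shControl-CM (9, 6 and 12 counts), and rose with shControl-CM (adjusted p = 0.00299). Mtf1, which encodes the zinc-sensing factor that binds MREs, was called in no comparison, with log2 fold changes of 0.31 and -0.37 against control medium (adjusted p = 0.511 and 0.536) and -0.68 between the conditioned media (adjusted p = 0.617).

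In the heme list, Hmox1, the enzyme that breaks heme down and frees its iron, was at 387.6, 409.7 and 276.4 CPM with shControl-CM, 166.4, 182.9 and 209.5 CPM with shBrca2-CM, and 174.1 and 210.0 CPM with control medium. It was higher with shControl-CM than with the others, and fell by 0.91 with shBrca2-CM (SE 0.17, adjusted p = 0.0142). Cpox, an enzyme of heme synthesis, was at 55.3 and 62.1 CPM with control medium, 10.0 to 12.4 CPM with shBrca2-CM and 13.5 to 17.0 CPM with shControl-CM, and fell by 2.35 and 1.93 on the log2 scale (adjusted p = 1.72e-11 and 2.49e-04). Of 15 heme genes, 3 were higher and 2 lower with shControl-CM, and 1 higher and 2 lower with shBrca2-CM, against control medium (33.3% and 20% of the list, beside 37.1% and 37.8% of all genes).

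Among 26 genes of mitochondrial iron and iron-sulfur clusters, 6 were higher and 5 lower with shControl-CM, and 6 higher and 3 lower with shBrca2-CM, than with control medium, 42.3% and 34.6% of the list beside 37.1% and 37.8% of all genes. Mms19, a factor of cytosolic iron-sulfur assembly, rose in both (log2 fold change 1.27 and 1.29, adjusted p = 0.00235 and 3.82e-08), and Nfu1, a mitochondrial carrier of such clusters, fell in both by 1.44 and 1.18 (adjusted p = 2.80e-04 and 1.47e-07). Ciao2b, also of the assembly pathway, fell by 0.60 between the conditioned media (SE 0.13, adjusted p = 0.0408). Among 16 zinc transporters, 2 were higher and 2 lower with shControl-CM and 1 higher and 2 lower with shBrca2-CM, which is 25% and 18.8% of the list. The zinc importer Slc39a4 (ZIP4) was at 21.8, 19.3 and 31.2 CPM with shControl-CM, 7.23, 4.98 and 2.66 CPM with shBrca2-CM (5, 4 and 3 counts), and 2.78 and 3.44 CPM with control medium. It was 7.74-fold higher with shControl-CM than with control medium (adjusted p = 2.66e-04). It fell by 2.33 between the conditioned media (SE 0.42, adjusted p = 0.0114), and the zinc exporter Slc30a1 was called in none (adjusted p = 0.984 between the conditioned media, 0.224 and 0.118 against control medium). Of 9 copper genes, 22.2% were DE with each conditioned medium against control medium, where 2 rose with shControl-CM, among them the importer Slc31a1 (log2 fold change 0.80, adjusted p = 0.0202), and with shBrca2-CM Slc31a1 rose and Commd1 fell.

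**Figure D4:**
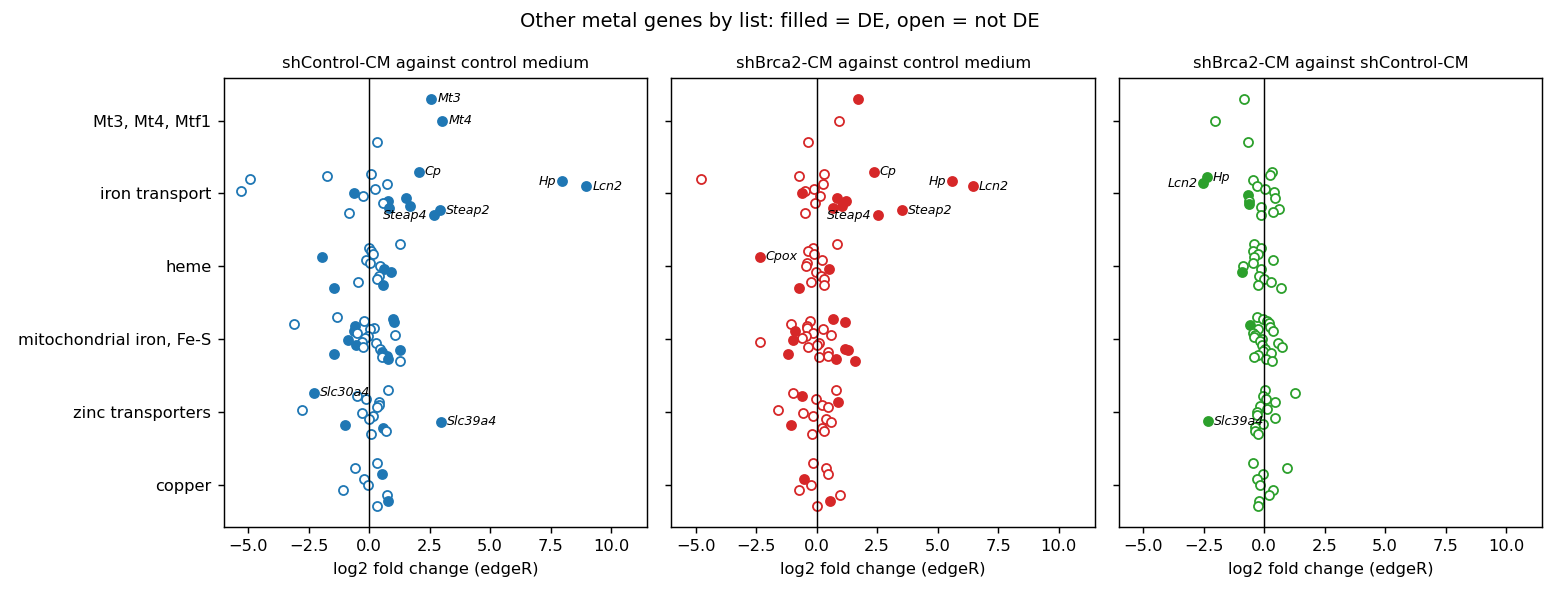
Log2 fold change (horizontal axis, edgeR) of each tested gene of the 6 lists of other metal genes, in rows by list, for the 3 comparisons; filled circles are DE, open circles are not, and DE genes beyond 2 in either direction are named. Between the conditioned media the 7 filled circles are all below 0, led by Lcn2 (-2.50), Hp (-2.36) and Slc39a4 (-2.33); points of genes with few counts, such as Slc30a4 with 3, 2 and 0 counts in shControl-CM, have no reliable size.

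Over the 8 libraries, genes among those most like Mt2 in log2 CPM were Ppard, Sdc1, Hp and Rfc3, with Pearson's r of 0.997, 0.996, 0.996 and 0.994 among 7080 genes compared. Most like Slc39a14 were Ier3, Mtpn, Dcn, Hp and Ptprn, with r of 0.994, 0.993, 0.992, 0.992 and 0.992. Hp was among the 5 nearest genes of both. The points share media and depth, and the 3 groups fix most of the order, so these are descriptions of likeness over libraries and carry no test.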

How the data were processed

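RNA of PSCs was measured by MARS-seq, a 3′ end method, in 8 samples of 3 groups, taken from their recorded treatment. What the authors deposited is a table of raw counts, 1 column per library, for 12160 genes. Per the labels, the submitters' processing notes name mm10, STAR 2.4.2a, HTSeq, cutadapt, bcl2fastq and DESeq2. Whether molecular identifiers were counted and how genes were selected is not given in the sources used here, so counting intervals and floors cover counting error only. A further column of counts (1), named as another DMEM library, fitted no sample of the series and was left out, so the control group has 2 libraries.

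Counts were analysed in R 4.3.3. CPM were scaled by TMM over all 8 libraries. Groups were compared in pairs, each in its own edgeR 4.0.16 fit (TMM, genes with at least 10 counts, quasi-likelihood test, Benjamini-Hochberg adjustment over all genes), and a gene was DE at an adjusted p-value under 0.1 where its log2 fold change lay beyond 0.5 and its normalized counts averaged more than 5. Where a group had 3 or fewer counts in each library, pooled count ratios with exact 95% intervals are given. Tested on simulated data in which 200 genes were shifted by 2 on the log2 scale, it recovered 194, 194 and 195 of them with 29, 21 and 16 false calls (shBrca2-CM against shControl-CM, shControl-CM and shBrca2-CM against control medium, with 10861, 11984 and 11930 genes tested). Promoters came from RefSeq (GRCm38.p6), and 8 of the 10 genes had a window. Likeness was Pearson's r of log2 CPM with a prior count of 2, and 1 gene is not reported here.

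The members and gene lists were chosen with earlier results of these data known. From the lists, up to 3 DE genes per direction, list and comparison were named, those of the largest fold change among genes whose libraries did not overlap; other genes named were picked after their values were seen. Alternatives were other scalings and filters, DESeq2 1.42.0, a fit of all groups, a replicate block, stricter thresholds, thinned libraries and leaving out each library. Thinning was repeated over 20 draws, an alternative chosen after seeing the data.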

Additional observations from a re-analysis of the deposited data

How the results depend on the processing

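With stricter thresholds (adjusted p under 0.05 and a log2 fold change beyond 1), 2 of the 10 genes (Mt2 and Slc11a1) and 3 of the other metal genes were DE between the conditioned media. With shControl-CM against control medium 5 of the 10 genes were higher and 3 lower, with no call lost, and 15 of the other metal genes were DE. With shBrca2-CM against control medium 3 of the 10 genes and 15 of the others were DE. Of all genes 1.18%, 19.7% and 18.1% were DE in these 3 comparisons. Thinning gave 20 of the other metal genes with shControl-CM (23 as the median of 20 draws) and turned Tfrc with shBrca2-CM against control medium to 0.91 (adjusted p = 0.296) in the planned draw, which left 6 and 1 Tfrc counts in the control libraries where 12.7 and 10.1 were the expected numbers. Over 20 draws, added after seeing the data, the median for Tfrc was -0.79, and Slc39a14 between the conditioned media kept its call in 11. Leaving out 1 library gave 3 to 12 of the other metal genes between the conditioned media, and 15 to 41 with shControl-CM against control medium. Slc39a14 between the conditioned media also lost its call with total counts, DESeq2, the replicate block and the planned thinning (adjusted p = 0.153, 0.105, 0.1003 and 0.135). Tfrc with shBrca2-CM lost its call with DESeq2 (adjusted p = 0.124) and the fit of all groups (0.189), and Ireb2 with filterByExpr, the fit of all groups and thinning. Mt1, Mt2, Slc11a1, Fth1, Ftl1 and Aco1 kept every DE call they had, except under the stricter thresholds and, for Slc11a1 with shControl-CM against control medium, in 1 of the 20 draws (called in 19).

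Over all genes, DE counts between the conditioned media were 128 (without the 2nd shBrca2-CM library) to 976 (without the 1st shControl-CM library) with 1 library left out, against 345. Those with shControl-CM against control medium were 1901 (without the 1st control library) to 5157 (without the 1st shControl-CM library), against 4488, and 2928 after thinning. Scaling by total counts moved the median log2 fold change of all genes between the conditioned media from 0.029 to 0.141. The replicate numbers carry no stated meaning, and deviations of same-numbered samples correlated at -0.0483, 0.0172 and 0.146, so they were not taken as pairs. A fit with the replicate block gave 311 DE genes between the conditioned media and 3 of the 10 genes, and with shControl-CM against control medium it added Tfrc (log2 fold change -0.91, adjusted p = 0.0381). Adding ferritin pseudogene counts was not run, since no such row was in the table. Counts of 3 or fewer per library limited Slc11a1 and Slc40a1 with shBrca2-CM and Ireb2 with both conditioned media.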
